A study of Mus musculus with 10 samples.

Results

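The laminins, the nidogens and perlecan are the secreted proteins around which a basement membrane is built. The 9 genes described here were chosen by name: the laminin alpha chain genes Lama1, Lama4 and Lama5, the beta chain genes Lamb1 and Lamb2, the gamma chain gene Lamc1, the nidogen genes Nid1 and Nid2, and the perlecan gene Hspg2. All 9 had a row among the 13578 genes of the deposited table. RNA had been sequenced from the sorted Oct4- somatic cells of gonads of single female mouse embryos (embryonic day 13.5, strain background C57BL/6, genotype Gulo-/-). Gulo completes the synthesis of vitamin C, and its loss in every embryo of both groups leaves the mother's diet as the source. In 5 embryos vitamin C had been supplied at a physiological level, and in 5 it had been withdrawn over the first 2 weeks of gestation. Embryos 2 and 3 of each group share a number in their titles, and whether they were litter mates is not stated. The comparison asks whether transcripts of these matrix genes differ when the embryo develops without dietary vitamin C.

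A laminin is a trimer of an alpha, a beta and a gamma chain that is assembled in the cell, secreted, and polymerises into a sheet on the cell surface. The alpha chain carries the main binding sites for integrins and dystroglycan, the receptors that hold the sheet to the cell. Nidogens bind the gamma chain and type IV collagen, and perlecan, a large heparan sulphate proteoglycan, links the networks and holds growth factors. In the developing gonad such membranes lie around vessels, under the surface epithelium and around the cords of supporting and germ cells. Vitamin C is a cofactor of the enzymes that hydroxylate proline and lysine in collagens, and of the TET dioxygenases that oxidise methylated cytosine in DNA.

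Expression was given as rlog values, regularised log2 values in which weakly expressed genes are pulled towards their mean. A change is withdrawn minus supplied on this log2 scale, and ± is the SD over n = 5 embryos. The sample medians lay between 9.12 and 9.14, the read depth is unknown, and the p-values measure only the spread between these embryos. In RNA from bulk samples, fewer cells of a type and less RNA per cell cannot be told apart. The cells carried the gonadal markers Nr2f2 (mean rlog 14.19), a stromal transcription factor, and Wt1 (12.99), of supporting and stromal precursors. Of 17 germ cell markers 11 had no row, among them Pou5f1, the gene of Oct4 itself, Ddx4 and Dazl.

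Promoter sequences from 250 bases before to 50 bases after the gene start were found in RefSeq (build GRCm38.p6) for 5 of the 9 genes: Lama5, Hspg2, Lamb2, Lamb1 and Nid1. The 4 printed here are those of Lamb1 and Nid1, and of Lama5 and Lamb2, pairs whose levels varied together from embryo to embryo (r = 0.73 and 0.75, below). Capitals mark GGGCGG or, on the other strand, CCGCCC, the letters of the GC box. They lie at chr12:31265043-31265342 on the plus strand (Lamb1), chr13:13437352-13437651 on the plus strand (Nid1), chr2:180225810-180226109 on the minus strand (Lama5) and chr9:108479612-108479911 on the plus strand (Lamb2), each 5′ to 3′ along the gene.
Lamb1: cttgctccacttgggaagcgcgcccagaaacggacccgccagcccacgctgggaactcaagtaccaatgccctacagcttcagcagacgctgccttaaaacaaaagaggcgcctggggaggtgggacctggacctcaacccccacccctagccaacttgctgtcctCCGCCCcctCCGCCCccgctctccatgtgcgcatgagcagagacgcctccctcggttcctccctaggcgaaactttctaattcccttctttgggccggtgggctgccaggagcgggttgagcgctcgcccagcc
Nid1: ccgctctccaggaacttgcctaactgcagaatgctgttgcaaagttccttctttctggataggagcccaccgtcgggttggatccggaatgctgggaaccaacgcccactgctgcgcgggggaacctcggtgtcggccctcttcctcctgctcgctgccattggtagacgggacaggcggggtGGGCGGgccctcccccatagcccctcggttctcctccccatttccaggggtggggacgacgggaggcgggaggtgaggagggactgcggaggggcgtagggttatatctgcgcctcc
Lama5: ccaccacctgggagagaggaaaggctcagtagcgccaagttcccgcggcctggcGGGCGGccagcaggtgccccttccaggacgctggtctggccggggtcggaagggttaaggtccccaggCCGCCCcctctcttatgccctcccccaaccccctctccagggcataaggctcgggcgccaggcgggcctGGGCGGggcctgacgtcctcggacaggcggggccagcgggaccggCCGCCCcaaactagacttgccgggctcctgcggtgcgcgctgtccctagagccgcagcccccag
Lamb2: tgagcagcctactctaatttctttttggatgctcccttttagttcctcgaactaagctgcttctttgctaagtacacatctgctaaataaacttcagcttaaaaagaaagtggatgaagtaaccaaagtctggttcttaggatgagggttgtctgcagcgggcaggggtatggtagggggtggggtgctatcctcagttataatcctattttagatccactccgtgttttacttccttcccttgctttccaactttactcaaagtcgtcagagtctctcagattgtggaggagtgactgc
The GC box letters occurred 2 times for Lamb1, 1 time for Nid1, 4 times for Lama5 and 0 times for Lamb2, and 35.7% of the 32851 promoter windows in the same table held them on either strand. The letters CCAAT, searched on both strands, were found 1 time each for Lamb1 and Nid1 and 0 times for Lama5 and Lamb2, against 37.4% of all windows with a match. The letters TATAAA, also on both strands, were in 0 of the 5 windows and in 13.6% of all windows. The window of Lamb2 had a GC content of 44.0% and 4 CpG, below the medians of all windows (52.7% and 7). Lama5 had 72.7% and 24 CpG, Nid1 64.7% and 20, and Lamb1 63.7% and 18. The window of Hspg2 had 70.3% GC, 27 CpG and 5 GC box matches. These matches describe the letters of the windows only.

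On the rlog scale the mean level over the 10 embryos placed Hspg2 at rank 71 of 13578, Lamb1 at 168, Lamc1 at 227, Nid1 at 284, Lama1 at 602, Nid2 at 621, Lama5 at 1355, Lamb2 at 1906 and Lama4 at 2247. These transcripts are long, so genes were compared with each other only after the log2 of the length in kilobases of the longest coding transcript (GENCODE M21) was subtracted. Per kilobase the order became Lamb1 (11.02), Nid1 (10.54), Lamc1 (10.40), Hspg2 (10.29), Nid2 (10.16), Lama1 (9.24), Lamb2 (8.84), Lama4 (8.51) and Lama5 (8.20). Among the 11952 genes with a length, these levels stood at percentiles from 96.8 (Lamb1) to 75.0 (Lamb2), 68.5 (Lama4) and 62.0 (Lama5). Lamb1, Lamc1, both nidogens and perlecan thus stood above all the alpha chains, and Lamb2 lay among these. Neighbours in this order kept their places in 10 of 10 embryos except Lamc1 over Hspg2 (9 of 10) and Hspg2 over Nid2 (8 of 10). With the union of all annotated exons as the length, Nid1 ranked 1, Hspg2 2, Lamc1 3 and Lamb1 4, and Lama5 (8) stood above Lama4 (9), so the order within these neighbours depends on the gene model.

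**Figure D1:**
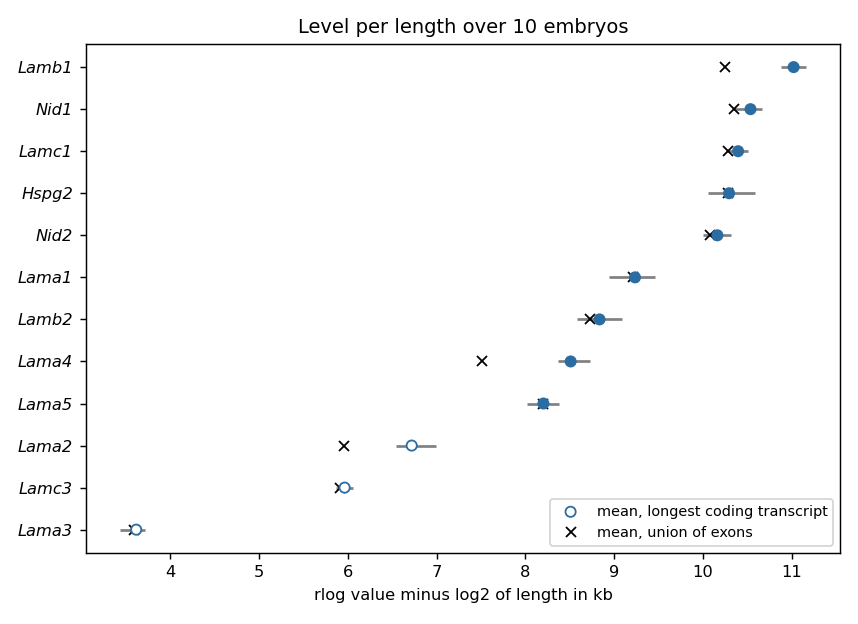
Level of the 9 genes (filled circles) and of 3 other laminin chain genes (open circles) per kilobase of the longest coding transcript, on the log2 scale. Circles are means, bars run from the lowest to the highest of the 10 embryos, and crosses are means per kilobase of the union of exons; Lamb1 stands highest at 11.02 and the alpha chains lie between 8.20 and 9.24, while Lama2, Lamc3 and Lama3 lie lower.

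Within each kind of chain, Lama1 made up the largest share of alpha transcript on a linear scale per kilobase, 43.5% ± 2.81 in supplied and 43.8% ± 1.99 in withdrawn embryos (SD, n = 5 each). Lama4, the alpha chain of vascular and mesenchymal basement membranes, made up 26.2% ± 2.25 and 26.7% ± 1.27, and Lama5, the widespread epithelial and vascular alpha chain, 21.4% ± 0.652 and 21.3% ± 0.785. Lama2, the muscle and nerve chain, took 7.93% and 7.37%, and Lama3, the chain of stratified epithelia, 0.929% and 0.853%. Lamb1 was 81.6% ± 1.92 and 82.2% ± 1.96 of the beta transcript of Lamb1 and Lamb2. Nid1 was 56.5% ± 1.97 and 56.3% ± 0.624 of the nidogen transcript. The ratio of summed alpha transcript to Lamc1 was 1.05 ± 0.0843 in supplied and 1.01 ± 0.0614 in withdrawn embryos, and that of summed beta transcript to Lamc1 was 1.88 ± 0.0979 and 1.89 ± 0.0313. Each of these differences between groups was within the SD of the supplied embryos except that of Lama3, and none was tested. The shares and ratios shift with the length used: with the union of exons the mean share over all embryos was 51.8% for Lama1, 25.7% for Lama5 and 16.0% for Lama4. That of Lamb1 was 74.1%. The level per kilobase of Lamb1 was then 10.24 and that of Lamc1 10.28, against 11.02 and 10.40 with the longest transcript, so the ratio of beta to Lamc1 depends on the gene model.

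No gene of the 9 passed the test between the groups. All 9 had a mean that was higher in withdrawn than in supplied embryos, by 0.030 to 0.11 on the log2 scale, with adjusted p from 0.928 to 0.995 (limma, Benjamini-Hochberg over all 13578 genes). Of all genes, 50.2% had a change above 0 and 0.0221% (3 genes) passed the adjusted threshold of 0.05. The median change was 0.059 over the 9 genes and 0.00021 over all genes. The 9 genes varied together from embryo to embryo (below), so their signs are not separate observations. At an unadjusted p under 0.05 stood 1 of the 9, Lamb1, beside 5.30% of all genes in either direction and 2.45% in the higher direction. In 0 of the 9 did the groups fail to overlap, beside 0.810% of all genes. The 95% intervals of the 9 changes reached from -0.14 to 0.23, and the upper end corresponds to 1.18-fold.

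Of the alpha chains, Lama1, the chain of early embryonic basement membranes, had rlog values of 12.50, 12.19, 12.38, 12.55 and 12.71 in supplied embryos 1 to 5 and of 12.40, 12.52, 12.65, 12.44 and 12.52 in withdrawn embryos 1 to 5. Supplied embryo 5 was the highest and supplied embryo 2 the lowest of all 10, so the supplied embryos spanned the withdrawn ones. The change was 0.041 (SE 0.0765, 95% interval -0.12 to 0.20, adjusted p = 0.994, limma).
Lama4 had 11.14, 10.99, 10.97, 11.32 and 10.96 in supplied and 11.06, 11.28, 11.13, 11.19 and 11.03 in withdrawn embryos. Supplied embryo 4 was the highest, and 3 supplied embryos lay below every withdrawn embryo. The change was 0.059 (SE 0.0677, 95% interval -0.084 to 0.20, adjusted p = 0.991, limma).
Lama5 had 11.65, 11.53, 11.59, 11.89 and 11.83 in supplied and 11.58, 11.87, 11.81, 11.77 and 11.61 in withdrawn embryos. The groups overlapped almost fully, with the highest and the lowest value both among the supplied embryos. Its change, 0.030, was the smallest of the 9 (SE 0.0719, 95% interval -0.12 to 0.18, adjusted p = 0.995, limma).

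Of the beta chains, Lamb1, which pairs with Lamc1 in most embryonic laminins, had 13.54, 13.41, 13.48, 13.57 and 13.50 in supplied and 13.63, 13.63, 13.54, 13.69 and 13.55 in withdrawn embryos. It had the largest change of the 9 genes: 3 withdrawn embryos lay above every supplied embryo and 4 supplied embryos below every withdrawn one. The means were 13.50 ± 0.0607 and 13.61 ± 0.0644, a change of 0.11 (SE 0.0477, 95% interval 0.0076 to 0.21) or 1.08-fold. Its unadjusted p was 0.0366 in limma and 0.0317 in the exact permutation test (two-sided, over all orders of the embryos, smallest possible 0.00794), and its adjusted p was 0.928. 
Lamb2, which replaces Lamb1 at the kidney filter and the neuromuscular junction, had 11.18, 11.23, 11.12, 11.42 and 11.58 in supplied and 11.36, 11.45, 11.56, 11.31 and 11.08 in withdrawn embryos. The highest value was a supplied embryo and the lowest a withdrawn one, against the sign of the mean change of 0.046 (SE 0.0887, 95% interval -0.14 to 0.23, adjusted p = 0.994, limma).

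Lamc1, the gamma chain of most laminin trimers, had 13.34, 13.25, 13.20, 13.41 and 13.22 in supplied and 13.36, 13.38, 13.36, 13.44 and 13.31 in withdrawn embryos. The withdrawn embryos lay in a narrow band (SD 0.0474, against 0.0876 in the supplied ones), and 3 supplied embryos lay below it. The change was 0.091 (SE 0.0493, 95% interval -0.014 to 0.19, adjusted p = 0.956, limma), with an exact permutation p of 0.0794.

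Of the nidogens, Nid1 had 13.19, 13.00, 13.13, 13.23 and 12.95 in supplied and 13.18, 13.22, 13.17, 13.28 and 13.08 in withdrawn embryos. Supplied embryos 2 and 5 were below every withdrawn embryo and the other supplied embryos lay among them. The change was 0.083 (SE 0.0580, 95% interval -0.039 to 0.21, adjusted p = 0.974, limma).
Nid2 had 12.49, 12.41, 12.29, 12.45 and 12.37 in supplied and 12.45, 12.49, 12.52, 12.60 and 12.43 in withdrawn embryos. Withdrawn embryo 4 was the highest and supplied embryo 3 the lowest, and 3 withdrawn embryos lay above every supplied one. The change was 0.098 (SE 0.0482, 95% interval -0.0041 to 0.20, adjusted p = 0.931, limma), with an exact permutation p of 0.0556. Nid2 overlaps Rtraf on the opposite strand over 437 exonic bases (GENCODE M21), whose reads cannot be told apart unless strand was used in the counting, which is not stated. The row of that gene (2700060E02Rik) had a change of -0.0010 (adjusted p = 0.999, limma). Nid1 overlaps the antisense gene Gm48682, which has no row, over 143 bases.

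Hspg2 had 14.02, 13.88, 14.08, 14.41 and 14.09 in supplied and 14.00, 14.20, 14.16, 14.18 and 14.20 in withdrawn embryos. The supplied embryos held both the highest value of all, embryo 4, and the lowest, embryo 2. The change was 0.054 (SE 0.0775, 95% interval -0.11 to 0.22, adjusted p = 0.992, limma).

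**Figure D2:**
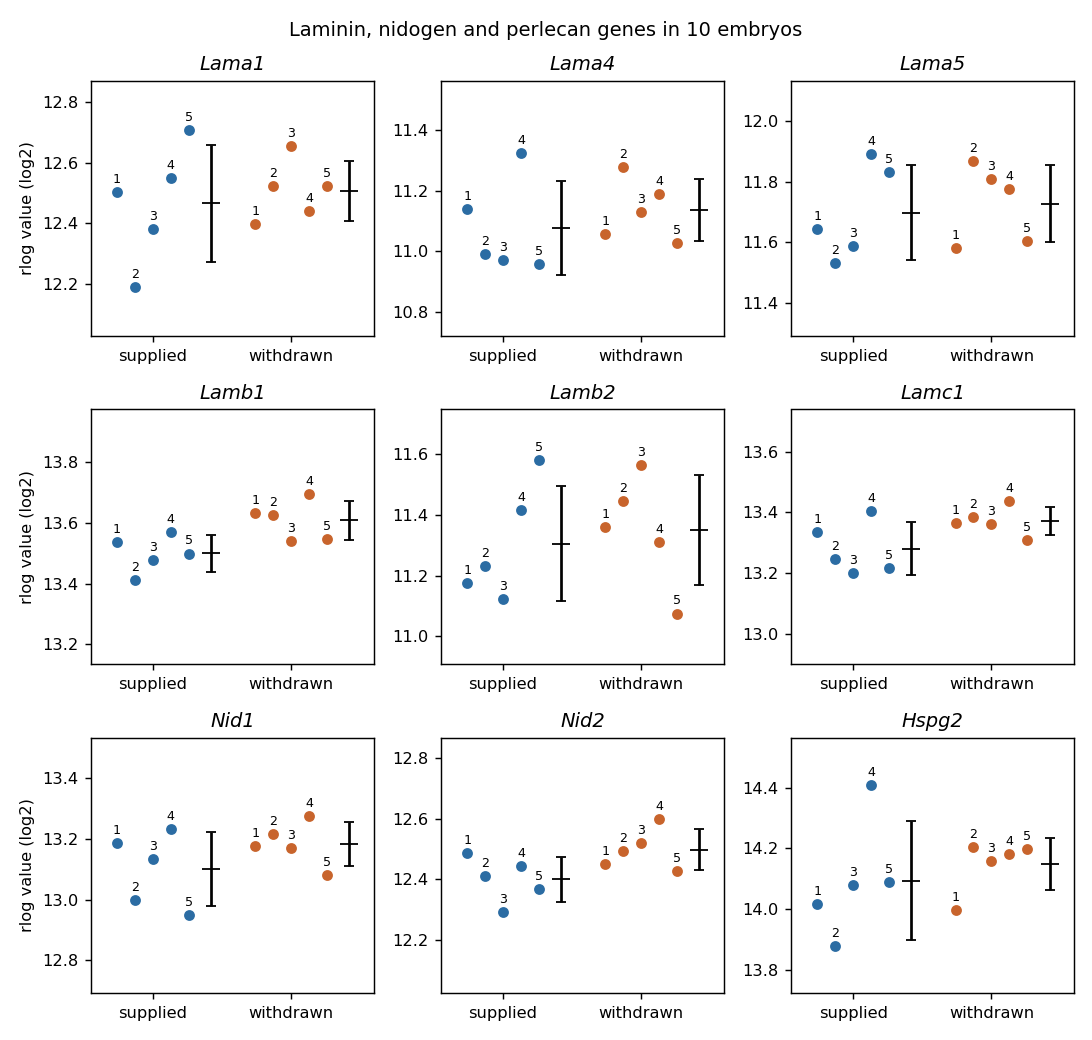
Rlog value (log2 scale) of each of the 9 genes in each embryo, with supplied and withdrawn embryos side by side; digits are embryo numbers and black bars the mean ± SD of 5 embryos. The groups overlap in every panel, Lamb1 comes nearest to a separation, and supplied embryo 4 is the highest or supplied embryo 2 the lowest embryo in several panels.

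The same few embryos were at the extremes in several genes. Supplied embryo 2 was the lowest of all 10 embryos in 4 of the 9 genes, and supplied embryos 3 and 5 in 2 each. Supplied embryo 4 was the highest of its group in 6 genes, and withdrawn embryo 4 was the highest of all embryos in 4. Supplied embryos 2 and 3 also stood apart in Chgb, a secretory granule gene of neuroendocrine cells chosen after its values were seen, with rlog values of 12.42 and 10.76 against at most 8.36 in the other 8 embryos. Of 14 neural and Schwann cell markers 9 had a row, and their mean level ranged from 7.34 to 8.58 in supplied and from 7.36 to 7.47 in withdrawn embryos. Fos, an immediate early gene, also chosen after its values were seen, was high in supplied embryo 4 (12.58) and withdrawn embryos 3 (12.50) and 2 (11.70), with at most 10.88 elsewhere.

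Without supplied embryos 2 and 3, 4 of the 9 genes kept a change above 0: Lamb1 (0.072), Nid2 (0.065), Nid1 (0.061) and Lamc1 (0.052). The changes of Lama1 (-0.079), Lama5 (-0.062), Lamb2 (-0.039), Hspg2 (-0.023) and Lama4 (-0.0048) were then below 0. Without supplied embryo 2 alone, 7 genes were above 0. With the libraries that share a title number averaged, 6 were. Without the 3 libraries of highest Fos, 8 were above 0, and the groups no longer overlapped in Lamb1, beside 5.05% of all genes in these smaller groups. Without supplied embryo 4 alone the groups also did not overlap in Lamb1, beside 1.83% of all genes. Both separations were narrow beside the residual SD of Lamb1 (0.0626). The highest supplied value left was 13.5381 (embryo 1). The lowest withdrawn value was 13.5412 (embryo 3), or 13.5466 (embryo 5) without the libraries of highest Fos. The adjusted p of the 9 genes was 0.503 or more in each of the 24 other fits. Of these, 6 repeat the changes by construction. In the 18 that can move them, Lamb1, Lamc1, Nid1 and Nid2 had a change above 0, with ranges of 0.064 to 0.14, 0.041 to 0.14, 0.0046 to 0.12 and 0.065 to 0.13.

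**Figure D3:**
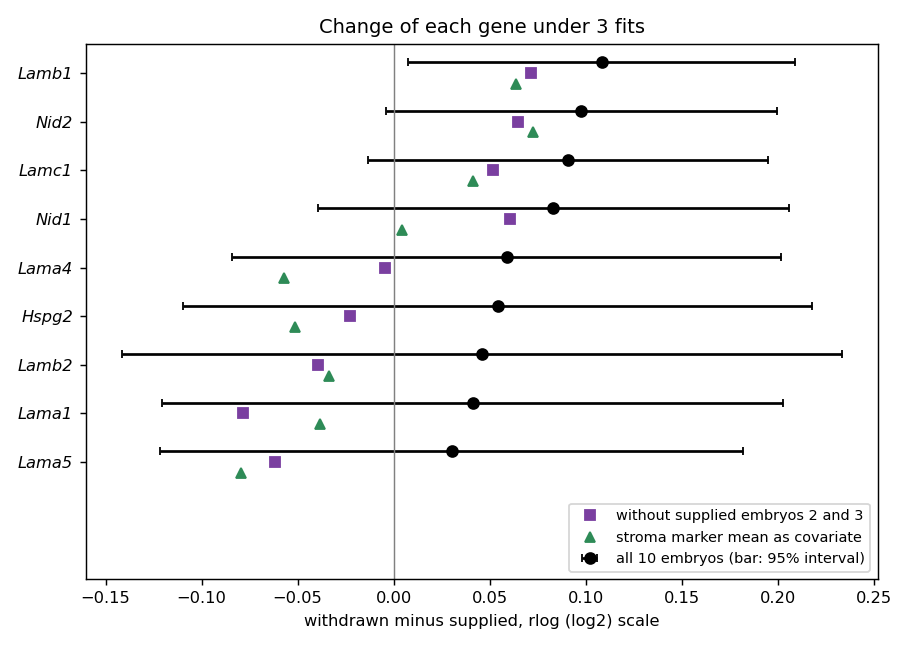
Change of each gene (withdrawn minus supplied, log2) in limma with all 10 embryos and with 95% intervals, beside the fit without supplied embryos 2 and 3 and the fit with the mean of the gonadal stroma markers as a covariate. The intervals of all genes but Lamb1 cross 0 in the fit of all embryos. Lama1, Lama4, Lama5, Lamb2 and Hspg2 lie below 0 in both other fits. The stroma marker list itself holds matrix genes.

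The residual spread between embryos of a group was larger for most of the 9 genes than for a typical gene of the table. Its median was 0.131 over the 9 and 0.0730 over all genes, and 6 of the 9 lay above the latter. Lamb2 was at the 98.2 percentile of all genes, Lama1 at 96.5, Hspg2 at 96.3, Lama5 at 95.2, Lama4 at 93.3 and Nid1 at 80.5. Nid2 (47.0), Lamc1 (46.1) and Lamb1 (34.0) varied about as much as, or less than, the median gene. Rlog pulls weakly expressed genes towards their mean, and the 9 genes stand high in level (ranks 71 to 2247 of 13578). All genes are therefore not a reference matched in level. No test was made of this spread.

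That spread was shared between genes. After the mean of each group was removed, 34 of the 36 pairs of the 9 genes had a Pearson r above 0 over the 10 embryos and 19 had one above 0.5, with a median of 0.52. The closest pair was Lama4 and Lamc1 (r = 0.90), followed by Lamc1 with Nid2 (0.82) and with Nid1 (0.81). Lama4, Lamb1, Lamc1 and Nid1 had r of 0.64 or more with each other. Lama5 varied with Lamb2 (0.75), Hspg2 (0.74) and Lama1 (0.73), and Lama1 with Lamb2 (0.60). Lama4 was also close to Hspg2 (0.69) and Lama5 (0.67), so the genes do not fall into separate sets. The lowest values were -0.08 for Nid1 and Lamb2 and -0.05 for Nid1 and Lama1. The points share libraries, so these r values are a description.

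**Figure D4:**
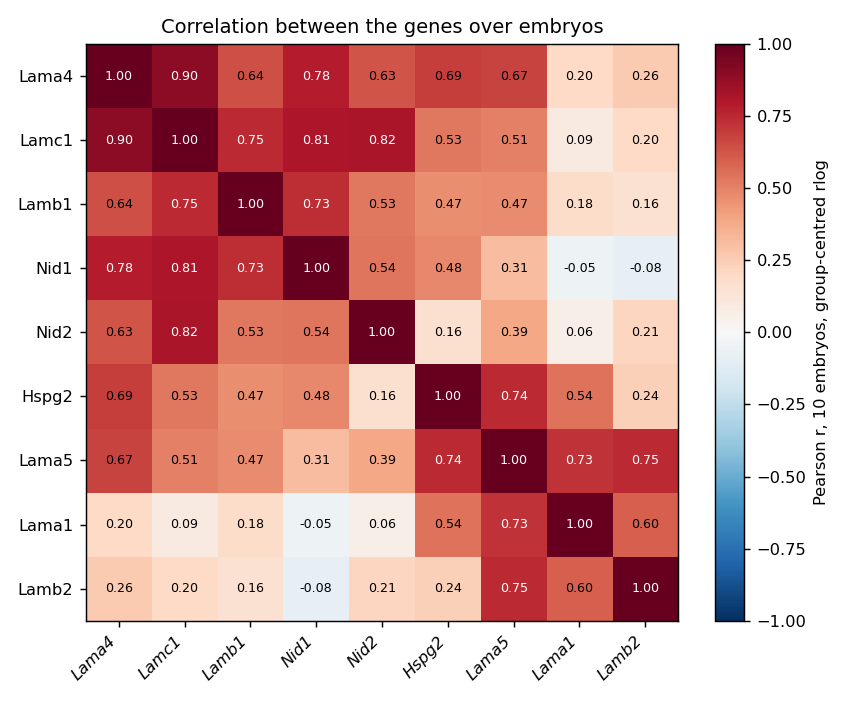
Pearson r between each pair of the 9 genes over the 10 embryos after the group means were removed, from -1 (blue) to 1 (red). Lama4, Lamc1, Lamb1 and Nid1 have r of 0.64 or more with each other, Lama5 has r of 0.67 or more with Lama4, Hspg2, Lama1 and Lamb2, and Nid1 with Lamb2 is lowest at -0.08.

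The same values were set beside the mean levels of marker genes of the cell types the Oct4- fraction could hold. Averaged over the 9 genes, r was highest with 12 pericyte and smooth muscle markers (0.63), 15 gonadal stroma markers (0.61) and 18 endothelial markers (0.50). It was lowest with 13 macrophage markers (-0.53), 9 neural and Schwann markers (-0.49) and 14 supporting cell markers (-0.41). Lama4 followed the mean of the pericyte and smooth muscle list (r = 0.93), as did Lamc1 and Nid1 (0.83 each). Not every marker of that list went the same way. Rgs5, a pericyte gene named after its values were seen, was highest in supplied embryos 2 and 3 (7.98 and 7.89). In these 2 embryos the mean level of the 9 genes was lowest (12.43 and 12.47). Hspg2 followed the endothelial list (0.78) and the 6 germ cell markers that had a row (0.79). The mean of these 6 was low, 6.20 to 6.39 in supplied and 6.17 to 6.31 in withdrawn embryos, beside sample medians of 9.12 to 9.14. Lama1 ran against the neural list (-0.88) and Lamb2 against the macrophage list (-0.82). The neural list includes Chgb. Its mean was 8.58 and 8.09 in supplied embryos 2 and 3 and at most 7.53 in the others, so these 2 embryos weigh heavily on its r. The erythroid list had a mean r of -0.32, the mesonephric list 0.17, the surface epithelium list 0.33 and the germ cell list 0.34. Many of these markers are also expressed outside the cell type they stand for, as Pdgfrb is in stroma.

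**Figure D5:**
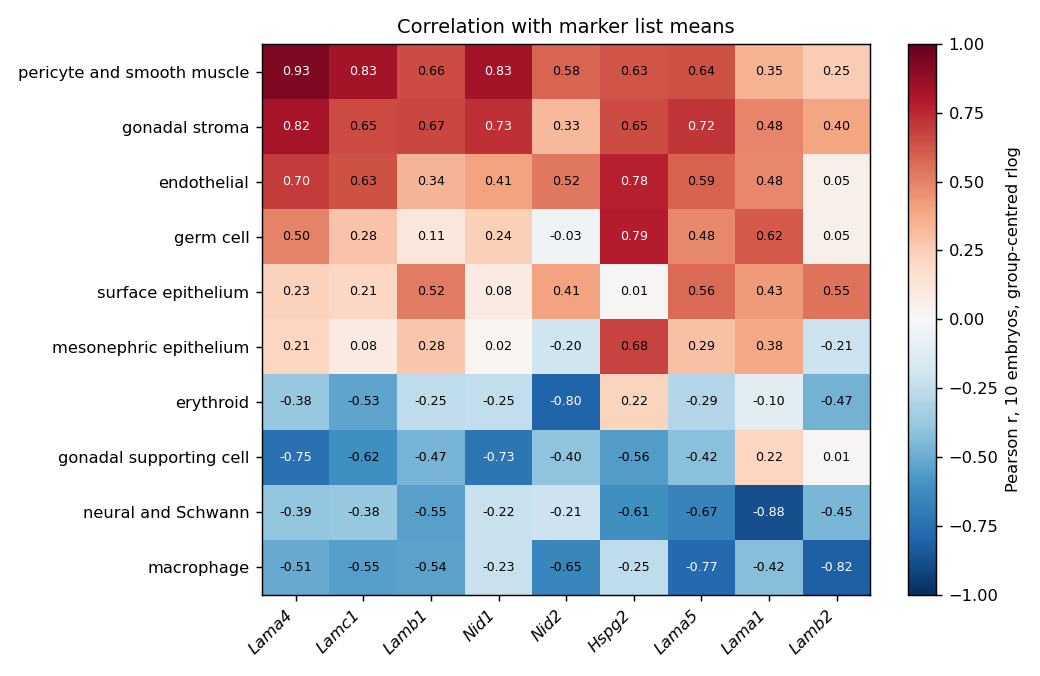
Pearson r over the 10 embryos between each of the 9 genes and the mean level of each cell type marker list, after the group means were removed. Lama4 with the pericyte and smooth muscle list (0.93) is the highest value, and Lama1 with the neural and Schwann list (-0.88) the lowest. The mean of the neural and Schwann list was highest in supplied embryos 2 and 3.

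Between the groups, the mean of the stroma markers ranged from 11.96 to 12.18 in supplied and from 12.08 to 12.24 in withdrawn embryos, with 13 of 15 markers above 0 and a median change of 0.072. With that mean as a covariate, 4 of the 9 genes had a change above 0, from 0.0046 (Nid1) to 0.073 (Nid2). The other 5 lay between -0.080 (Lama5) and -0.034 (Lamb2). The stroma list itself holds matrix genes, such as Dcn (change 0.24), Col3a1 (0.19) and Postn (-0.072). Its mean is thus not a measure of cell makeup alone. The pericyte and smooth muscle list ranged from 9.67 to 9.83 and from 9.69 to 9.80. As a covariate it left all 9 genes above 0 and 3 of them at an unadjusted p under 0.05, beside 5.87% of all genes in that fit, with a median change of 0.062. The endothelial list ranged from 8.53 to 8.70 in supplied and from 8.44 to 8.59 in withdrawn embryos, with 4 of 18 markers above 0 and a median change of -0.033. With it as a covariate all 9 genes were above 0, the median change was 0.13, 5 genes had an unadjusted p under 0.05 beside 8.68% of all genes in that fit, and none passed after adjustment (lowest adjusted p 0.503, limma). Supporting cell markers ranged from 11.01 to 11.19 and from 11.01 to 11.15. The neural list had a median change of -0.20, with 1 of 9 markers above 0. What part differences in cell makeup had in the changes of the 9 genes was not tested.

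The 3 pericyte and smooth muscle markers of highest level differed in the sign of their change. Pdgfrb, a growth factor receptor of pericytes and stroma, had means of 12.57 and 12.68 (change 0.11, adjusted p = 0.963, limma). Notch3, a receptor of mural cells, had 11.74 and 11.87 (0.13, adjusted p = 0.900), and Mylk, the kinase of smooth muscle myosin, 11.77 and 11.54 (-0.23, adjusted p = 0.928).

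The other genes of the basement membrane and of its anchorage to the cell were read from 7 lists with 110 genes, of which 105 had a row. None of the 105 passed the adjusted threshold (lowest adjusted p 0.900, limma), and 5 of them, 4.76%, had an unadjusted p under 0.05, beside the 5.30% of all genes given above. A change above 0 was found in 59 genes (56.2%, beside 50.2% of all genes), with a median of 0.0080, and in 0 of the 105 did the groups fail to overlap.

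Of 4 other laminin chains 3 had a row, 1 of them lay above 0, and the median change was -0.072, opposite in sign to the 9 genes. Lama3 had a change of -0.090 (adjusted p = 0.956, limma) and Lama2 of -0.072 (0.989). Lamc3 had a change of 0.014 (0.998). None of these passed.

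Of 10 basement membrane collagen genes 6 lay above 0, with a median of 0.0089. The type IV collagen chains Col4a6 (0.16, unadjusted p = 0.0129, adjusted p = 0.900, limma) and Col4a5 (0.14, 0.0225 and 0.928) had the smallest p. The genes of these chains lie next to each other on the X chromosome. Col15a1, of vascular and muscle basement membranes, had a change of 0.085 and Col17a1, of hemidesmosomes, of -0.020. Of 25 other basement membrane components 14 lay above 0, with a median of 0.0080. Fbln2, a fibulin that binds nidogens, had a change of -0.12 (unadjusted p = 0.0332, adjusted p = 0.928). Fras1, of the epithelial Fraser complex, had a change of 0.12 (adjusted p = 0.947), Tnc, tenascin C, of -0.14 (0.956) and Fbln1 of 0.080 (0.963).

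Of 19 genes listed as laminin receptors 11 lay above 0, with a median of 0.0073 and 0 at an unadjusted p under 0.05. The list also holds genes that are not laminin receptors themselves, such as the sarcoglycans and Unc5b. Those of smallest p were Sgce, a sarcoglycan (0.090), the syndecan Sdc1 (0.062), the integrin chain Itga1 (0.060) and Itga7, a laminin-binding integrin chain (-0.043). Dystroglycan binds laminin through sugars added by a chain of enzymes: 11 of 18 of their genes lay above 0, with a median of 0.017 and 0 at an unadjusted p under 0.05. Pomt1, which starts the sugar chain, had a change of 0.086, Dpagt1 of 0.076, Dpm2 of -0.073 and Ispd of -0.074.

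Of 22 genes of the adhesion complex inside the cell 12 lay above 0, with a median of 0.0079. The cytoskeletal linkers Dst (0.11, unadjusted p = 0.0189, adjusted p = 0.910, limma) and Utrn, utrophin, which links dystroglycan to actin (0.10, 0.0440 and 0.931), had an unadjusted p under 0.05. Parva, a partner of integrin-linked kinase, had a change of 0.090 and the syntrophin Sntb1 of -0.060. Of 8 matrix-binding growth factor partners, 4 lay above 0, with a median of -0.0026. Fgfr1, a receptor for fibroblast growth factors, had a change of 0.10 (adjusted p = 0.931), Fgf2 of 0.057, and Pdgfa and Pdgfb of -0.056 each.

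Among all other genes, those whose group-centred values over the 10 embryos were most like the mean of the 9 were Pkmyt1, a kinase that restrains entry into mitosis (r = 0.97), 5530601H04Rik (0.96), Chrd, a secreted antagonist of BMP (0.96), Ino80, the ATPase of a chromatin remodelling complex (0.96), and Rbms3, an RNA-binding protein (0.95). Their changes between the groups were 0.0082, 0.040, 0.050, 0.079 and 0.11 in that order, and 0 of the 5 passed the test (adjusted p 0.956 to 0.999, limma).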

How the data were processed

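RNA sequencing of 10 embryos was used, from 2 ng of total RNA each and a SMARTer pico total RNA kit, per the labels. The authors deposited rlog values per gene, which are on a log2 scale, in 1 table. Trim Galore 0.4.0, TopHat2 2.1.1, DESeq2 1.20.1 and build mm9 are named in the submitters' processing notes. Rlog shrinks changes of weak genes most, and depth cannot be read from it.

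Each gene was tested with limma 3.58.1 (R 4.3.3, variance trend, no covariate, Benjamini-Hochberg over 13578 genes, threshold 0.05). The fit was also run on simulated data with planted changes larger than those of the 9 genes. That run does not bear on changes as small as theirs. A minimum mean of 3 removed no gene. The 9 genes, the other lists, the groups of embryos left out and the marker lists were chosen with earlier results of these data known. Named genes were the 9, every gene of a pathway list (marker lists excluded) with at most 6 tested or else the 4 of smallest p, the 5 most like the mean of the 9, and the 3 strongest markers of the closest list. Exceptions (Fos, Chgb, Nr2f2, Wt1, Rgs5 and the listed germ cell genes) are marked or used as checks. A gene that the rule names is not reported here. Lengths came from GENCODE M21 (GRCm38) for 88.0% of genes, promoters from RefSeq; mm9 coordinates were not used. Other settings stand in the closing section.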

Additional observations from a re-analysis of the deposited data

Results flagged for a closer look

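Hspg2 in withdrawn embryo 1 had an rlog value of 14.00 (13.9973), while the other 4 withdrawn embryos lay between 14.16 and 14.20. Its gap to the nearest embryo was 0.777 of the range of the group, above Dixon's 95% critical value of 0.71 for 5 samples. Lama2 in supplied embryo 4 was 10.26, while the other 4 supplied embryos lay between 9.94 and 10.03 (ratio 0.729). These were the 2 values singled out in 72 groups of 5 embryos, 18 of them of the 9 genes, and chance singles out about 1 in 20 groups.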

How the results depend on the processing

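All 9 genes stayed short of the adjusted threshold in every setting fitted, and 144 of the 162 changes in the 18 settings that can move a change were above 0. The other 6 settings (filters on low values, variance estimation, replicate block) repeat the changes by construction. The 18 settings refit largely the same embryos, and the 9 genes vary together, so the 162 signs are not separate observations. The number of genes of the whole table past the threshold (3) became 1 with a mean minimum of 7, without the variance trend, after quantile normalization, with title numbers averaged and with the stroma covariate, 5 with robust variance estimation and 6 with the pericyte covariate. It lay between 0 and 4 when 1 embryo was left out. Of the 9 genes, the number at an unadjusted p under 0.05 (1) became 2 without the trend, 0 with title numbers averaged, with the stroma covariate and without the 2 libraries of highest Chgb, 3 with the pericyte covariate and 5 with the endothelial covariate, and lay between 0 and 3 without 1 embryo. The share of all genes at that p was 5.43% without the trend, 4.29% with title numbers averaged, 4.51% with the stroma, 5.87% with the pericyte and 8.68% with the endothelial covariate, 4.65% without the libraries of highest Chgb and 4.11% to 6.20% without 1 embryo. The number of the 9 above 0 became 4 with the stroma covariate and 4 without the libraries of highest Chgb, and their median change became -0.034 and -0.0048. Groups did not overlap in 1 of the 9 without the libraries of highest Fos (5.05% of all genes), and in 0 to 1 without 1 embryo (1.41% to 2.07% of all genes).

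With the stroma covariate Lama1 had a change of -0.039, Lama4 of -0.057, Lama5 of -0.080, Lamb2 of -0.034 and Hspg2 of -0.051. Without the libraries of highest Chgb their changes were -0.079, -0.0048, -0.062, -0.039 and -0.023. With title numbers averaged, Lama1 had a change of -0.024, Lama5 of -0.032 and Lamb2 of -0.024, and without the libraries of highest Fos Lamb2 had a change of -0.028. Leaving out 1 embryo gave -0.028 to 0.10 for Lama1, -0.011 to 0.078 for Lama5, -0.0072 to 0.11 for Lamb2, 0.00034 to 0.13 for Hspg2 and 0.023 to 0.12 for Lama4. The lowest value of Hspg2 was without supplied embryo 2 and the highest without supplied embryo 4. The cause was not tested. The settings that leave out libraries by Fos or Chgb and the pericyte covariate were chosen after seeing the data.

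With the replicate number as a block, 2 genes of the table and 0 of the 9 passed, 9 of 9 changes were above 0, and the change of Lamb1 was 0.11 (adjusted p = 0.999). Same-numbered embryos of the 2 groups had correlations of 0.17, -0.18, -0.36, -0.091 and -0.10, and only embryo 1 matched its own number best. So few values cannot settle whether a number marks a shared batch or litter. Within a group, embryos 2 and 3, which share a title number, had r of 0.14 (supplied) and 2.8e-05 (withdrawn). The median over all pairs of the group was -0.26 and -0.29, so both pairs that share a title number stood above it. Removing the mean of 5 embryos by itself pulls r within a group below 0. A value near 0 is therefore no sign that embryos are unrelated, and whether they are litter mates was not tested. The main fit treats the 5 embryos of a group as independent. Depth is unknown, and the precision is limited by 5 embryos a group and by the shrinkage of rlog values.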
